A study of Mus musculus with 2 samples.

Results

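R-loop peaks that lay between genes but close to one were examined in primary neural stem/progenitor cells (NSPCs), with those upstream of a transcription start site (TSS) set beside those downstream of a transcription end site (TES). A peak was taken when it overlapped no gene of any kind in the GENCODE M1 annotation of mouse genome build mm9 and lay at most 10 kb, edge to edge, from the nearest protein-coding gene. Of 22132 peaks in the list, 5239 (23.7%) overlapped no gene, and 2217 of these (10.0% of the list) met the distance rule. The nearest gene placed 786 of them upstream of its TSS and 1431 downstream of its TES, so that 35.5% were upstream (95% exact binomial interval 33.5 to 37.5%, for counting error only, since neighbouring peaks are not independent).

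The cells came from the frontal brain of C57BL/6 mice at postnatal day 7, were grown in culture and, by the study's methods, were exposed to aphidicolin, an inhibitor of replicative DNA polymerases, to induce mild replication stress. DNA:RNA immunoprecipitation and sequencing (DRIP-seq) was carried out with the S9.6 antibody, which binds DNA:RNA hybrids, after genomic DNA had been cut with 5 restriction enzymes (EcoRI, HindIII, BsrGI, SspI and XbaI). The result is 1 list of peak positions without heights or read counts, the matched input library is not used here, and no list from untreated cells was analysed here. By the study's methods 3 biological replicates were sequenced, but no list per replicate was analysed here. The values below therefore have no replicate error and no known depth, no difference below has a test, and the identity of the cells cannot be checked against expression markers.

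R-loops are three-stranded structures in which nascent RNA pairs with the template DNA strand and leaves the other strand unpaired. They form preferentially where the non-template strand is rich in G, a property measured as GC skew, (G - C)/(G + C). Many mammalian promoters lie in CpG islands and fire in both directions, which gives short antisense transcripts upstream of the TSS, whereas at the other end RNA polymerase II continues past the polyadenylation site before it is released. Both kinds of transcription run through sequence that an annotation calls intergenic.

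The DNA under the 4 widest peaks of each side and under the wide peak next to Pou3f3 is shown first, because G-rich stretches are the sequence feature that R-loops are known for. Each line gives the 100-base window of a peak where G most outnumbers C, 5′ to 3′ on the strand of the nearest gene in mm9, with runs of 3 or more G in capitals. The first 5 peaks lay upstream of the TSS of the gene named and the last 4 downstream of its TES.
Micalcl (chr7:119509731-119509830, plus strand): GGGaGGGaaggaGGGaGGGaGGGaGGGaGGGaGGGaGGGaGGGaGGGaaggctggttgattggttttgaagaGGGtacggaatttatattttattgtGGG
Adcyap1r1 (chr6:55388168-55388267, plus strand): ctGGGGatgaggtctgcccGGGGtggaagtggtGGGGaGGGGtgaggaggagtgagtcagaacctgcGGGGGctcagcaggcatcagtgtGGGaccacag
Psmd11 (chr11:80236982-80237081, plus strand): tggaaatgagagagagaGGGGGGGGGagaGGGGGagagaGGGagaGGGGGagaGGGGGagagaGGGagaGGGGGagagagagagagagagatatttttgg
Slc25a47 (chr12:110086018-110086117, plus strand): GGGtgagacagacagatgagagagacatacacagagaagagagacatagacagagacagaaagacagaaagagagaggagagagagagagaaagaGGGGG
Pou3f3 (chr1:42752303-42752402, plus strand): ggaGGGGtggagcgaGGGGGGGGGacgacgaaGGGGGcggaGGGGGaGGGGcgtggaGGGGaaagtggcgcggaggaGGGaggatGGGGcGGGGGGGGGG
Sdhaf2 (chr19:10566592-10566691, minus strand): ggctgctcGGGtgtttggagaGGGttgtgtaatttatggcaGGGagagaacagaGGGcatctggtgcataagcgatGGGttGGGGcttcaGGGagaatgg
Col3a1 (chr1:45422022-45422121, plus strand): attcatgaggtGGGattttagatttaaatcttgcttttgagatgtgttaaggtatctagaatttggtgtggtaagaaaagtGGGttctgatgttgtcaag
Rin1 (chr19:5060076-5060175, plus strand): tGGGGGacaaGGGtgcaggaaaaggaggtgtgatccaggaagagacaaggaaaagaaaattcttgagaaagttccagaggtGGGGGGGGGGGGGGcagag
Timm17a (chr1:137188647-137188746, minus strand): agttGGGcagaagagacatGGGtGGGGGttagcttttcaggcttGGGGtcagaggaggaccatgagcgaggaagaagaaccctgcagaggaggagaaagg
The stretch near Pou3f3, which encodes a neural POU-domain transcription factor, held 71 G against 8 C and 9 runs of G. Those near Psmd11, a proteasome subunit gene, and Micalcl held 60 G and 0 C, and 53 G and 2 C. The poorest in G were those near Slc25a47, with 39 G, 9 C and 2 runs, and near Col3a1, with 29 G, 6 C and 2 runs. The G-dense stretches were local: over the whole peak, GC skew was -0.05 at Pou3f3, 0.04 at Psmd11 and 0.03 at Micalcl. Each window was chosen for its excess of G and none from peak-free sequence is shown, so their G density does not set the peaks apart from other sequence.

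Short peaks of extreme strand asymmetry looked different. The following 4 are whole peaks, 2 of each side chosen among those of at most 300 bp by the largest absolute skew and, where that was tied, by the higher GC content, and they consist of purine-pyrimidine asymmetric tracts (Zg16 and Olfr291, upstream) or of TG and CA repeats (Pigm and Prss32, downstream).
Zg16 (chr7:134203928-134204045, minus strand): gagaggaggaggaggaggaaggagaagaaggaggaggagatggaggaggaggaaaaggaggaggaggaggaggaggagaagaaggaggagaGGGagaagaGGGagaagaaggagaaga
Olfr291 (chr7:91994603-91994854, plus strand): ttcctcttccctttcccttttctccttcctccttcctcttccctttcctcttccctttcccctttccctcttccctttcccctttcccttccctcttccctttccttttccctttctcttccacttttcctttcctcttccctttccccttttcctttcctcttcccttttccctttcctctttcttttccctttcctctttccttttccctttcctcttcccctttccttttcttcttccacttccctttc
Pigm (chr1:174323021-174323146, plus strand): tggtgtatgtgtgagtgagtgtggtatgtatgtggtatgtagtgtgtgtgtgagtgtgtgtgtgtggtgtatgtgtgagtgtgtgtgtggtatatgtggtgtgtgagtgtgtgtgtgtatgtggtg
Prss32 (chr17:23998969-23999070, plus strand): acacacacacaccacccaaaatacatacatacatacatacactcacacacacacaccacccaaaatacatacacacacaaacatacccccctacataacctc
The Zg16 peak held 66 G and 0 C on the gene strand, and the Olfr291 peak 0 G and 119 C. Runs of G of the kind printed in capitals were thus not needed for a large skew: the Pigm peak held 58 G and no run of 3.

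Peaks covered the downstream side more densely than the upstream side. Intergenic sequence within 10 kb of a protein-coding gene amounted to 128.3 Mb on the upstream side and 119 Mb on the downstream side, counted by the same nearest-gene rule and outside assembly gaps. Near-gene intergenic peaks covered 0.834 Mb of the first (0.650%) and 2.27 Mb of the second (1.91%), a ratio of 2.94 in favour of the downstream side. All peaks of the list, including those that run into a gene, covered 2.45% and 4.04% of the same sequence, a ratio of 1.65. By number there were 6.13 peaks per available Mb upstream and 12.0 downstream. The downstream side thus had more and wider peaks on slightly less sequence.

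**Figure D1:**
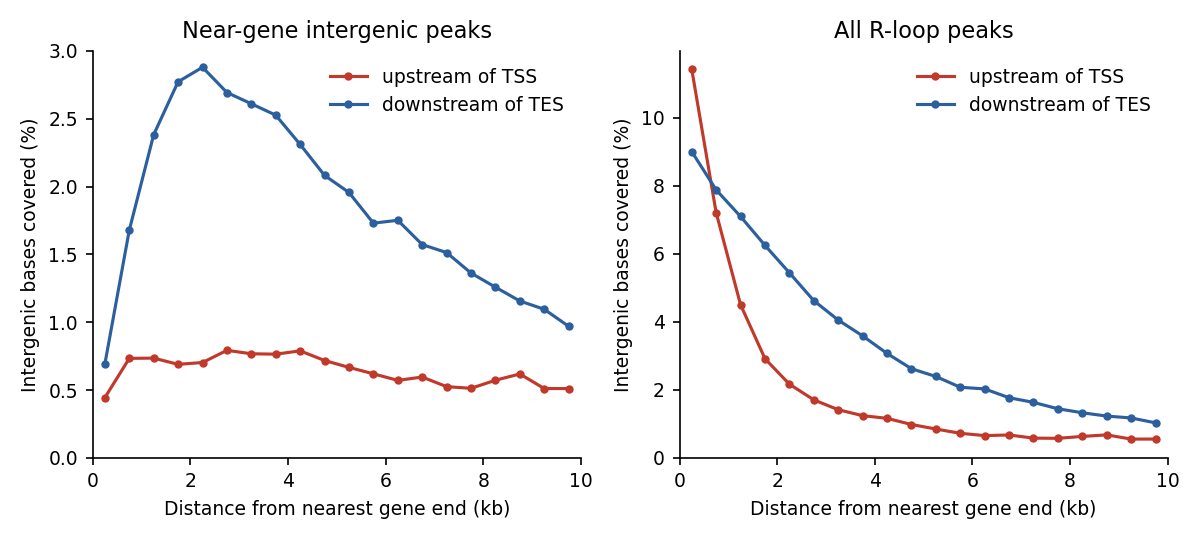
Percent of intergenic bases covered by near-gene intergenic peaks (left) and by any R-loop peak (right) in bins of 500 bp, plotted against distance in kb from the nearest TSS (upstream) or TES (downstream). Near-gene intergenic peaks covered most at 2.0 to 2.5 kb downstream (2.88%) and at most 0.793% of any upstream bin, while any peak covered 11.4% of the first 500 bp upstream and 9.01% of the first 500 bp downstream.

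The shape along the distance also differed between the sides. Upstream, coverage by near-gene intergenic peaks stayed between 0.444% and 0.793% in every bin of 500 bp. Downstream it was 0.692% in the first 500 bp, reached 2.88% at 2000 to 2500 bp and declined to 0.969% in the last bin before 10 kb. The low first bins are partly built in, because a peak that runs into the gene is no intergenic peak. Coverage by all peaks of the list, which is free of that rule, was 9.38% in the first 1 kb upstream and 8.46% in the first 1 kb downstream, a downstream over upstream ratio of 0.902. Between 1 and 5 kb the same coverage was 2.09% and 4.75% (ratio 2.27), and between 5 and 10 kb 0.651% and 1.65% (ratio 2.53). The sides were thus close within 1 kb of the gene, with the upstream side slightly higher, and the downstream side was higher beyond it.

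Intervals between a pair of genes on the same strand allow both sides to be read in the same stretch of DNA, since such a tandem interval has a TES at one end and a TSS at the other. Of the 786 upstream peaks 429 lay in tandem intervals, and 357 in divergent intervals, where 2 gene starts face each other. Of the 1431 downstream peaks 804 lay in tandem intervals and 624 in convergent ones, where 2 gene ends face each other. Within tandem intervals, near-gene intergenic peaks covered 0.681% of the sequence nearer the TSS and 1.79% of the sequence nearer the TES, a ratio of 2.63. All peaks of the list covered 2.56% and 3.64% there, a ratio of 1.42. Coverage of the divergent intervals (0.616%) was close to that of the tandem sequence nearer the TSS, and coverage of the convergent intervals (2.08%) was close to that of the tandem sequence nearer the TES.

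Downstream peaks were also wider. Upstream widths ran from 0.1 to 10.2 kb with a median of 0.732 kb (quartiles 0.473 and 1.34 kb), and downstream widths from 0.102 to 9.68 kb with a median of 1.18 kb (quartiles 0.642 and 2.23 kb). The distributions overlapped along their whole range. A width of at least 1 kb was found in 274 upstream peaks (34.9%, interval 31.5 to 38.3%) and 810 downstream peaks (56.6%, interval 54.0 to 59.2%), and a width of at least 5 kb in 12 and 58. Both medians lay between those of the 3022 intergenic peaks farther than 10 kb from a protein-coding gene (median 0.589 kb) and of the 16893 peaks over genes (median 1.66 kb). Width declined with distance downstream, from a median of 1.56 kb for peaks within 500 bp of the TES to 0.928 kb for those 5 to 10 kb away. Upstream it was 0.751 kb within 500 bp and 0.688 kb at 5 to 10 kb.

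**Figure D2:**
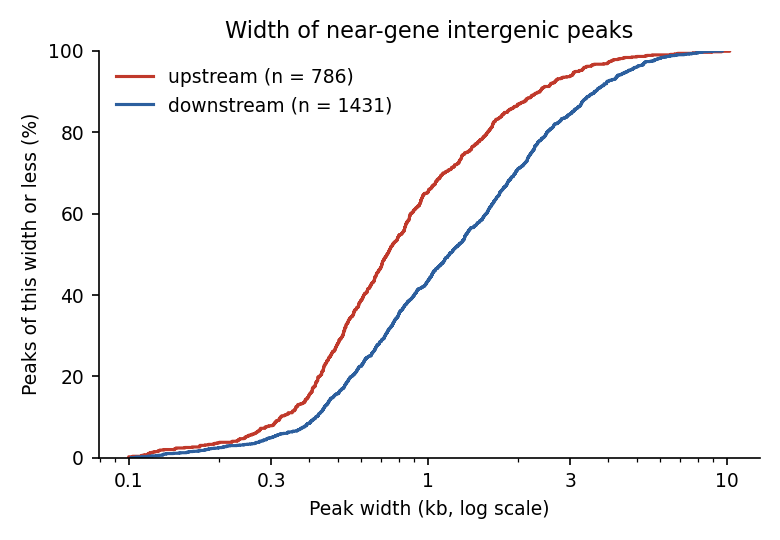
Cumulative percent of near-gene intergenic peaks (vertical axis) at or below each width in kb (horizontal axis, log scale), for 786 upstream and 1431 downstream peaks. The downstream curve lies to the right of the upstream curve, with medians of 1.18 and 0.732 kb.

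Edge-to-edge gaps had a median of 3364 bp upstream and 2376 bp downstream. Within 500 bp of the gene lay 135 upstream and 232 downstream peaks. The 3 closest upstream peaks began 0 bp from the TSS of Ibtk, 2 bp from that of Notch3, a Notch receptor gene, and 3 bp from that of B4galt5, a galactosyltransferase gene. Downstream, the closest peaks began 2 bp past Rdh13, 4 bp past Mapk8, which encodes the kinase JNK1, and 5 bp past Vps18, a vesicle-tethering gene. At the outer limit, 43 upstream and 42 downstream peaks lay 9 to 10 kb away, beside 38 and 48 at 10 to 11 kb. The last peak inside was 0.735 kb wide and lay 9995 bp upstream of Spats1, and the first outside was 1.77 kb wide and lay 10020 bp downstream of Ndfip1.

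The sides differed little in GC content, and in CpG content mainly near the TSS. Median GC content was 47.8% upstream and 47.3% downstream, both above the 43.1% and 43.0% of peak-free 1 kb windows on the same sides (118881 and 107269 windows). CpG observed over expected, for which 0.6 is 1 of the thresholds used to define CpG islands, had medians of 0.172 and 0.176. It reached 0.6 in 54 upstream peaks (6.87%) and 14 downstream peaks (0.978%), against 1.61% and 0.404% of the peak-free windows. Of these peaks, 45 and 10 also had a GC content of at least 50%. The upstream cases at 0.6 or above sat mostly at the promoter: 29.6% of the 135 peaks within 500 bp of a TSS reached 0.6, with a median ratio of 0.42 and a median GC content of 51.2%, whereas every upstream distance class from 500 bp to 10 kb held 1.89 to 2.22%. Downstream the share was 0.431% within 500 bp and 1.76% at 5 to 10 kb. Sequence in no peak carried the same gradient, so that in the first 500 bp upstream the ratio was 0.635 inside near-gene intergenic peaks and 0.475 outside any peak.

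**Figure D3:**
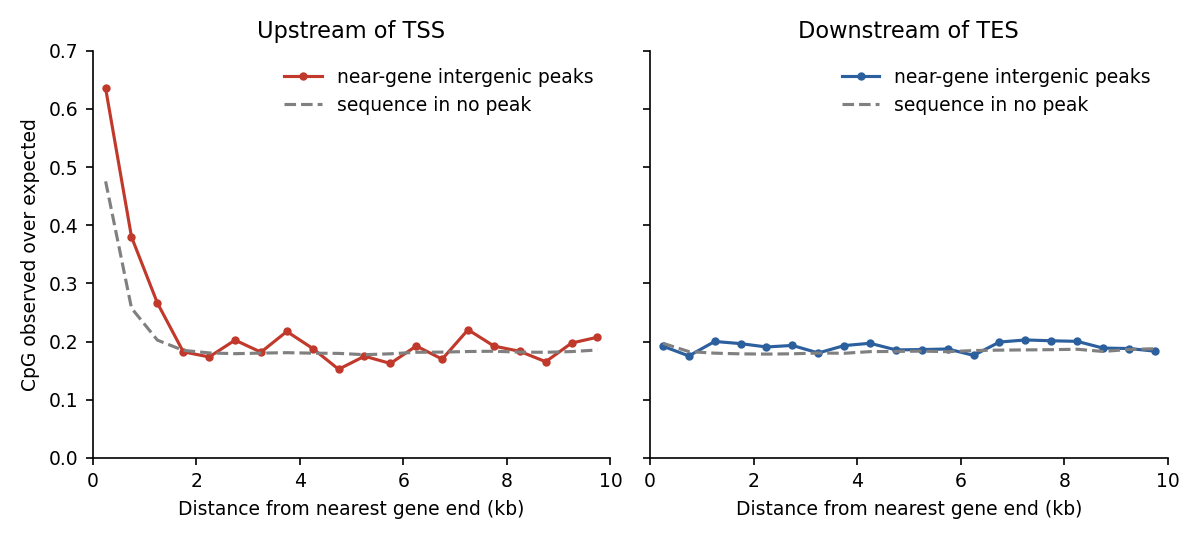
CpG observed over expected (vertical axis, no unit) in bins of 500 bp against distance in kb from the TSS (left) or TES (right), for bases in near-gene intergenic peaks and for intergenic bases in no peak. The ratio was 0.635 and 0.475 in the first upstream bin, and inside peaks lay between 0.152 and 0.266 in all upstream bins beyond 1 kb and between 0.175 and 0.203 in all downstream bins.

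Downstream peaks tended to be G-rich on the gene strand, and on both sides peaks of at least 1 kb were so more often than narrower ones. Skew on the strand of the nearest gene was above 0 in 853 of 1431 downstream peaks (59.6%, interval 57.0 to 62.2%) and in 396 of 786 upstream peaks (50.4%, interval 46.8 to 53.9%), beside 49.2% and 50.6% of the peak-free windows. Among peaks of at least 2 kb it was above 0 in 283 of 418 downstream (67.7%, interval 63.0 to 72.2%) and in 58 of 105 upstream (55.2%, interval 45.2 to 65.0%). The values themselves were small. Mean skew was 0.0174 ± 0.252 (SD, n = 1431) downstream and -0.0158 ± 0.382 (SD, n = 786) upstream, and in downstream peaks of at least 2 kb 0.0311 ± 0.0942 (SD, n = 418). Positions that start 4 G in a row averaged 4.85 per kb on the gene strand and 4.40 on the other strand downstream, and 4.71 and 5.16 upstream. A longer run counts more than once here. In tandem intervals mean skew was 0.0281 on the TES side and -0.0142 on the TSS side, whereas in convergent intervals, where the facing gene lies on the other strand, it was 0.00284.

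**Figure D4:**
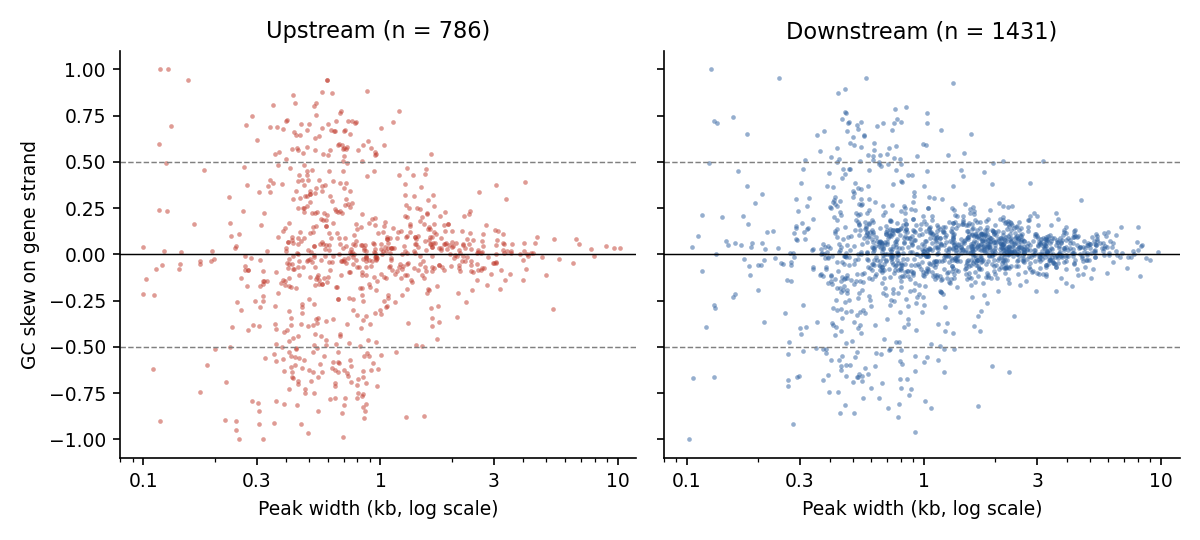
GC skew on the strand of the nearest gene (vertical axis, no unit) against peak width in kb (horizontal axis, log scale), 1 point per peak, for 786 upstream and 1431 downstream peaks. The dashed lines mark skews of 0.5 and -0.5: of the 320 peaks at or beyond them, 290 are narrower than 1 kb, and the wide downstream peaks lie mostly just above 0.

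A set of short peaks stood apart by extreme skew of either sign. An absolute skew of at least 0.5 was found in 183 upstream peaks (23.3%, interval 20.4 to 26.4%) and 137 downstream peaks (9.57%, interval 8.10 to 11.2%), against 0.177% and 0.162% of the peak-free windows. It had no common direction: 81 of the upstream peaks were G-rich and 102 C-rich on the gene strand, and downstream 64 were G-rich and 73 C-rich. Most were narrow, with 34.6% of the upstream peaks under 500 bp and 33.6% of those of 500 to 1000 bp, but 5.33% of those of 1 to 2 kb and 0 of 105 above that. Since short stretches vary more in skew, the fair comparison with 1 kb windows is the class of 1 to 2 kb, which exceeded them on both sides (5.33% upstream and 4.59% downstream). Among intergenic peaks farther than 10 kb from a protein-coding gene the share was 43.8%, and among peaks over genes 6.21%, so that both sides lay between these 2 classes.

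Simple repeats followed the same order. Tandem TG or GA dinucleotides (CA or TC on the other strand, at least 6 copies) made up over 20% of the bases in 71 upstream peaks (9.03%) and 37 downstream peaks (2.59%), beside 0.0362% and 0.0364% of the peak-free windows. A short peak reaches 20% with fewer repeat bases than a 1 kb window. In peaks of 1 to 2 kb, TG repeats made up a mean of 2.73% of the bases upstream and 1.36% downstream, beside 0.529% and 0.486% of the windows. For GA repeats it was 0.550% and 0.381%, beside 0.293% and 0.245%. All-purine or all-pyrimidine tracts of at least 30 bases exceeded 20% of the bases in 120 upstream peaks (15.3%) and 99 downstream peaks (6.92%), beside 0.847% and 0.704%. At least 1 such tract was present in 36.4% of upstream and 30.8% of downstream peaks, and in 14.4% and 11.9% of the windows. These shares also move with width, and upstream peaks were narrower: purine or pyrimidine tracts made up a mean of 13.0% of the bases upstream and 7.33% downstream in peaks under 500 bp, 4.58% and 3.51% in peaks of 1 to 2 kb, and 3.24% and 1.97% in those of at least 2 kb, beside 1.16% and 0.963% of the windows. The upstream peaks thus held both CpG-rich peaks at promoters and repeat-rich ones, and each kind made up a smaller share downstream. A list from DNA treated with RNase H, which removes the RNA of hybrids, was not analysed here.

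Of all 22367 protein-coding genes, 8.91% (1992) were the nearest gene of at least 1 of these peaks, 3.36% (752) by an upstream and 5.86% (1310) by a downstream peak, and 70 had both. Most such genes had 1 peak on a side: 719 of the 752 upstream and 1198 of the 1310 downstream. The peaks were more frequent beside genes that themselves carried a peak. Of the 8858 genes that overlapped a peak, 4.73% had an upstream and 9.63% a downstream near-gene peak, against 2.47% and 3.38% of the 13509 genes that did not. Split by the TSS, the difference lay downstream: 11.8% of the 3325 genes with a peak over the TSS had a downstream near-gene peak, against 4.83% of the 19042 others, while the upstream shares were 3.52% and 3.34%. Split by the TES, the order downstream was the other way: 4.99% of the 2447 genes with a peak over the TES had a downstream near-gene peak, against 5.96% of the 19920 others, and the upstream shares were 5.07% and 3.15%. A peak over the TSS or TES can also take up sequence just outside the gene without counting as a near-gene peak. The upstream shares of the TSS split and the downstream shares of the TES split are thus partly set by the rule. Gene length and expression were not held equal in these splits, and a long gene is a larger target for a peak.

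Seen from the peaks, 440 upstream (56.0%) and 942 downstream peaks (65.8%) had a nearest gene that overlapped a peak, where 39.6% of all protein-coding genes did. The gene end that a peak faced lay in another peak for 122 upstream (15.5%) and 133 downstream peaks (9.29%), where 14.9% of all genes had the TSS and 10.9% the TES in a peak. Peaks beyond 1 kb were more often companions of a peak over the gene end than those nearer: the share was 2.96% within 500 bp and 20.9% at 2 to 5 kb upstream, and 2.16% and 12.2% downstream. The low shares near the gene are partly built in, because a separate peak over the gene end must stop before the near peak begins. Another peak lay within 10 kb of 369 upstream (46.95%) and 826 downstream peaks (57.7%). At most 10 bp from another peak lay 57 peaks (17 upstream and 40 downstream). The same shares over the whole list were not counted, so these do not show closer spacing than among peaks in general.

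The widest upstream peaks belonged to genes of unlike function. The widest of all, 10.2 kb at chr7:119500389-119510624, ended 1197 bp upstream of Micalcl and began 1680 bp past the end of Mical2, so that both a TES and a TSS lay within 2 kb of it. A peak of 9.63 kb lay 6799 bp upstream of Adcyap1r1, the receptor gene for the neuropeptide PACAP, and one of 8.90 kb lay 2565 bp upstream of Psmd11, whose TSS was in a further peak. Brd2, which encodes a bromodomain protein that reads acetylated histones, had a peak of 7.72 kb at 1951 bp, and its TSS also lay in another peak. Slc25a47 (7.95 kb), Bcl9l, a cofactor of β-catenin (6.86 kb), and Cacng6, a calcium channel subunit gene (6.71 kb), had no peak over the gene. Of the 12 upstream peaks of at least 5 kb, 6 had a second protein-coding gene within 10 kb on their far side, against 100 of 512 upstream peaks narrower than 1 kb. It was 50 of 169 upstream peaks of 1 to 2 kb and 26 of 93 of those of 2 to 5 kb. Downstream the share hardly differed, with 18 of 58 peaks of at least 5 kb (31.0%) and 179 of 621 narrower than 1 kb (28.8%).

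Downstream, the widest peak was 9.68 kb long and began 1209 bp past Sdhaf2, an assembly factor gene of succinate dehydrogenase. Col3a1, the gene for type III collagen, had a peak of 8.97 kb that began 7281 bp past its end and lay 8364 bp from the end of Col5a2, a gene that runs towards it. Rin1, a Ras effector gene, had one of 8.63 kb only 51 bp past its TES, and Timm17a, a mitochondrial import gene, one of 8.34 kb at 1221 bp. Peaks of 8.26 and 8.18 kb lay 8537 bp past Qk, which encodes the RNA-binding protein quaking, and 739 bp past Ptpn11, the gene for the phosphatase SHP2. Arhgap12 had one of 8.00 kb at 3126 bp. At Srsf3, a splicing factor gene, the peak of 8.02 kb at 3781 bp followed a peak that overlapped the gene, covered the TES and reached 3.24 kb beyond it. Skew on the gene strand was 0.15 in the intergenic Srsf3 peak, the highest of these 8, and -0.12 in that of Ptpn11, the lowest.

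**Figure D5:**
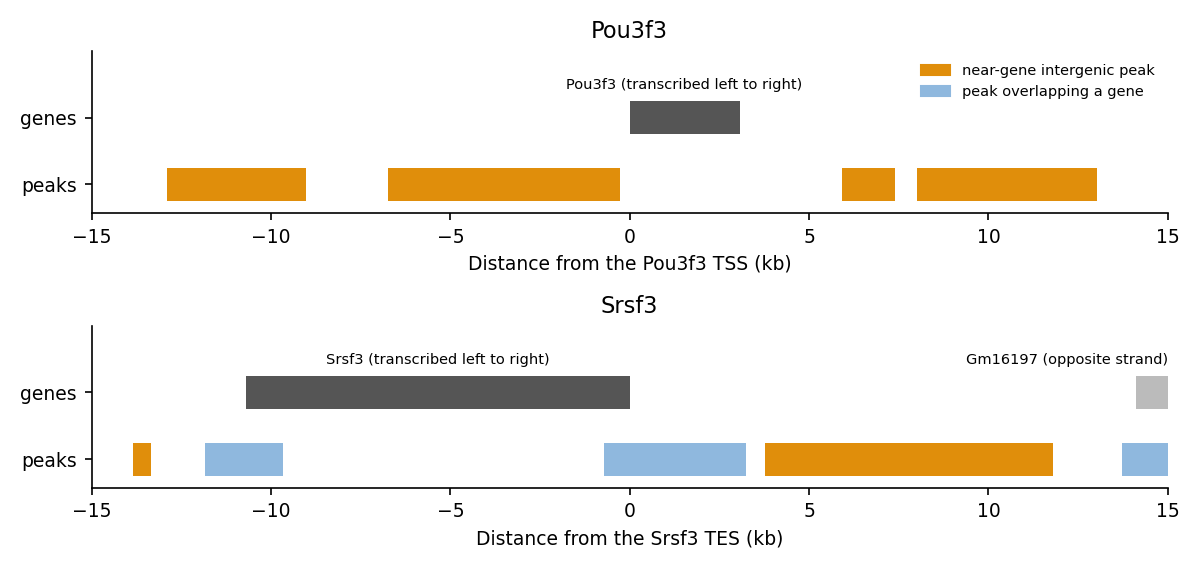
Peaks and genes around Pou3f3 and Srsf3, in kb from the Pou3f3 TSS (top) and from the Srsf3 TES (bottom), with near-gene intergenic peaks in orange and peaks that overlap a gene in blue. Pou3f3 has 2 orange peaks on each side and none over the gene as GENCODE M1 annotates it, and at Srsf3 the orange peak of 8.02 kb follows a blue peak that spans the TES. A further orange peak lies before the Srsf3 gene, at -13.84 to -13.35 kb, and a blue peak covers the Srsf3 TSS.

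Pou3f3 was flanked on both sides. Its upstream peaks were 6.49 kb wide at 261 bp (chr1:42747242-42753729) and 3.88 kb wide at 9014 bp, its downstream peaks 1.47 kb wide at 2856 bp and 5.02 kb wide at 4961 bp, and no peak overlapped the gene as GENCODE M1 annotates it. The paper, which used RefSeq genes, gives Pou3f3 as an example of a gene with R-loops in NSPCs but not in embryonic stem cells. It also reports that these R-loops reached into Pantr1, an adjacent gene for a long non-coding RNA. The peaks listed here are intergenic by the GENCODE M1 annotation only. CpG observed over expected was 0.57 and 0.54 in the upstream pair and 0.39 and 0.20 in the downstream pair, against medians of 0.172 and 0.176 over all upstream and downstream peaks. Of the genes with an upstream peak 32 had 2 and 1 had 3, and of those with a downstream peak 104 had 2, 7 had 3 and 1 had 4. Olfr291, an olfactory receptor gene, had 3 upstream with single unlisted bases between them, so that they form 1 pyrimidine-rich stretch. Downstream, Atrx, a chromatin remodeller gene on chromosome X, had 4, of which 3 were separated by 1 base, while Cpsf6, a pre-mRNA cleavage factor gene, Hs2st1, a heparan sulfate sulfotransferase gene, and Atp1b3, a sodium pump subunit gene, were the 3 widest in sum among the 7 with 3. Those of Cpsf6 lay 1075, 4276 and 7621 bp past the gene. Fat1, a giant cadherin gene, and E330021D16Rik were among those with 2 upstream peaks.

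Gene lists are set beside the 8.91% of all protein-coding genes and the 13.8% of genes overlapping a peak that had a near-gene intergenic peak, and no test was made. The amount of intergenic sequence beside the genes was not held equal between the lists and all genes. The first list held transcription factors of neural development. Of 68 annotated entries for the 67 symbols (Gsx2 and Sox4 have 2 entries each), 15 (22.1%) had a near-gene intergenic peak, 6 upstream and 11 downstream, and 60.3% overlapped a peak. Besides Pou3f3, upstream peaks lay near Id2 (0.506 kb wide, at 2085 bp), near Sox4 (0.605 kb, at 4712 bp) and near Pou3f2 (1.56 kb, at 5976 bp). Olig1, of the oligodendrocyte lineage, had one on each side (1.72 kb at 3467 bp upstream, 0.856 kb at 8287 bp downstream). The TSS of Sox4, Pou3f2 and Olig1 lay in a peak, that of Id2 did not. Downstream, Sall3 had peaks of 5.05 kb at 3435 bp and 3.98 kb at 9912 bp, Nkx2-2 one of 4.31 kb at 1122 bp, Sox21 one of 3.23 kb at 1272 bp and Nfib one of 2.56 kb at 3843 bp. Peaks of 0.62 to 1.16 kb lay downstream of Id3, Tcf4, Otx2, Six3 and Nr2e1, the last a gene of neural stem cell maintenance. The peaks near Six3 (skew -0.68) and Nr2e1 (0.52) were among those with extreme skew.

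Of 17 genes listed as immediate early, many of them switched on within minutes of a stimulus, 4 (23.5%) had such a peak. They were Btg2 (3.13 kb, 7812 bp downstream), Ier2 (2.15 kb, 3040 bp downstream), Jund (3.28 kb, 5826 bp upstream) and Junb (0.411 kb, 4082 bp upstream). Of 29 SR and hnRNP genes, which encode splicing and RNA-packaging proteins, 5 (17.2%) had one, with Hnrnph1 (2.51 kb, 31 bp past the TES) and Hnrnpd (1.33 kb, 3694 bp) beside Srsf3, and 89.7% overlapped a peak. Of 138 entries with a ribosomal protein symbol 17 (12.3%) had one. They were taken by symbol among genes annotated as protein-coding, which can include entries named as pseudogenes. The widest peaks were 5.30 kb at 1554 bp past Rplp1, 3.99 kb at 274 bp past Rps24 and 3.83 kb at 5017 bp past Rpl37a. Skew on the gene strand was 0.13 at Hnrnph1, 0.17 at Hnrnpd, 0.11 at Rplp1 and 0.15 at Rps24, but -0.00 at Rpl37a.

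Pluripotency, olfactory receptor, keratin and histone genes gave a mixed picture, the first 3 families being known for expression in other cells than these. None of 10 pluripotency genes had a near-gene intergenic peak, and 1 overlapped a peak (10%). Of 1113 olfactory receptor genes 21 (1.89%) had one and 0.359% overlapped a peak. The widest of these lay upstream of Olfr1200, Olfr776 and Olfr1420 and were 1.33, 1.26 and 1.03 kb wide. Of 67 replication-dependent histone genes 1 (1.49%) had one, Hist2h2aa1, with 2.20 kb at 191 bp upstream. By contrast 8 of 51 keratin genes (15.7%) had one although 1.96% overlapped a peak. The widest were 1.87 kb at 3977 bp upstream of Krt10, 1.004 kb at 3447 bp past Krt82 and 0.919 kb at 309 bp past Krt1, with skews of 0.06, 0.37 and -0.55. Transcription of the genes named here was not measured.

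Several properties of the assignment bear on these counts. A non-coding gene lay nearer than the protein-coding gene for 56 upstream and 70 downstream peaks, and a second protein-coding gene within 10 kb put the peak on the opposite side for 152 (19.3%) and 238 (16.6%). Restriction cuts limit the resolution of DRIP-seq. A site of 1 of the 5 enzymes lay within 100 bp of 22.6% of upstream and 27.9% of downstream peak edges, against 28.3% for the whole list. The share at random positions was not counted, so these values do not show that peak edges sit at cuts. The part of unannotated transcript ends in the downstream coverage was not tested.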

How the data were processed

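The data are DRIP-seq of cultured C57BL/6 NSPCs from postnatal day 7 (1 sample) with an input library that is not used here. Per the labels and methods, the authors used Trim Galore 0.6.6 for adapter trimming (version from the submitters' processing notes) and NCBI37/mm9 for alignment. Duplicate reads were discarded, and a hidden Markov model defined the peaks. Libraries came from 3 biological replicates, each a pool of 3 immunoprecipitations. How the replicates were merged into the 1 peak list is not given in the sources used here. The deposited file holds peak positions only, in bp, without score, strand or read count, so depth is unknown. Positions were read as 0-based and are printed 1-based.

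Genes were taken from GENCODE M1 (37273, of which 22367 protein-coding) and sequence from the mm9 genome. A peak was kept when it overlapped no gene by 1 bp or more and lay at most 10 kb from the nearest protein-coding gene, whose strand set the side. Available sequence was assigned base by base by the same rule. GC skew, CpG observed over expected and repeats were counted over each peak and over 1 kb windows free of peaks. Intervals on shares are exact Clopper-Pearson (95%). With 1 list for all replicates, no test was run. Assignment of side and gap was tested on simulated peaks around annotated genes. Python 3.11.15, numpy 2.4.6, pandas 2.3.3, scipy 1.17.1 and matplotlib 3.10.9 were used.

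The members and gene lists were chosen with earlier results of these data known, and the repeat, skew-class, interval-type, gene-split and restriction-site measures were added after the peaks had been seen. Named genes are those of the 8 widest and 3 closest peaks per side, up to 4 genes per side with the most peaks, Pou3f3, and list genes with a peak (at most 3 by width for lists other than transcription factors and immediate early genes). 1 named item is not reported here. Mical2, Col5a2, Spats1, Ndfip1, Zg16, Pigm and Prss32 were named after their values were seen. Alternatives changed the minimum width, merging, distance limit, gene set, overlap rule, chromosomes and the summary statistic.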

Additional observations from a re-analysis of the deposited data

How the results depend on the processing

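The 8 summary values were recomputed under 10 or 11 alternatives each. Of 83 recomputed values, 59 stayed within the counting interval of the original value (for differences and ratios, a 95% interval over peaks, and for the number of peaks within 1.5 times), 22 moved outside it and 2 changed sign. Downstream peaks were more numerous, covered more of the available sequence and were wider under every alternative run. The upstream share, 35.5% as reported, was 30.4% with a limit of 2 kb, 31.7% with 5 kb, 25.3% for peaks of at least 1 kb and 41.7% when peaks were called intergenic by their midpoint. The ratio of coverage, upstream over downstream, was 0.341 as reported, 0.270 for peaks of at least 1 kb, 0.299 where all genes within 10 kb put the peak on the same side, 0.404 with the nearest gene of any biotype and 0.497 by midpoint. The number of peaks was 929 at 2 kb and 1084 at 1 kb or wider, by construction, and the difference in median width was -0.67 kb at 2 kb. The difference in mean CpG observed over expected, 0.0357 in favour of the upstream side, was 0.12 at 2 kb, 0.0650 at 5 kb and 0.197 by midpoint, turned to -0.0126 when peaks within 1 kb of a gene were left out, and was -0.00444 between medians, so it rested on peaks near the TSS. The share of upstream peaks whose TSS lay in another peak was 8.16% at 2 kb, 8.61% by midpoint, 12.3% with any biotype and 19.6% beyond 1 kb. The share of downstream peaks whose TES did was 5.26% at 2 kb, 7.06% by midpoint, 11.2% beyond 1 kb and 7.03% after peaks closer than 1 kb were merged. The lower mean skew upstream kept its sign under all alternatives run. With 1 list for all replicates, none could be left out. No paired analysis was possible because only the immunoprecipitated sample has a peak list.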
